A study of Mus musculus with 6 samples.

Results

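The genes of the proteasome and of the immunoproteasome were followed in wire-injured mouse carotid arteries. The list held 37 gene symbols, covering the alpha and beta rings of the core particle, the ATPases and other subunits of the regulatory particle, and the PA28 activators. A gene was measured where a probe set of the array named that symbol alone, and each gene was taken by its brightest such probe set (the highest mean over the 6 arrays). By this rule 36 of the 37 genes were measured, out of 18193 genes on the array, and they carried 75 probe sets in all. The only probe set that listed Psme2 also listed another symbol, so Psme2 has no value here. Of the 36 genes, 4 (Psmb8, Psmb9, Psmb10 and Psme1) were the interferon-inducible members and 32 were the constitutive ones.

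SMC-IRF9-TG mice carry full-length mouse IRF9 cDNA driven by the SM22α promoter, which is active in smooth muscle cells, and were compared with non-transgenic (NTG) controls. Both groups were C57BL/6 mice in the labels (the transgenic strain was made on the C57BL/6J background), the methods describe males of 10 to 12 weeks, and both groups had a carotid artery injured with a wire, so no uninjured vessel was profiled here. Arteries were taken 14 days after injury, 3 to 5 vessels were combined for each Affymetrix array, and each group had 3 such pools. Line 4 of the transgenic mice was used for the phenotypic evaluations, and no line is named for the arrays. The pools are the replicates, so p-values measure the spread between pools and not between single animals, and the small number of arrays limits the precision of every value. In whole arteries, fewer cells of a type cannot be told apart from less RNA per cell.

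The proteasome is the main protease for intracellular proteins that have been tagged with ubiquitin. Its barrel-shaped core has outer rings of alpha subunits, which form the gate, and inner rings of beta subunits, of which 3 kinds (the products of Psmb5, Psmb6 and Psmb7) cut peptide bonds. A regulatory cap with a ring of ATPases unfolds substrates and feeds them into the core. Interferons induce alternative catalytic subunits, encoded by Psmb8, Psmb9 and Psmb10, which take the places of Psmb5, Psmb6 and Psmb7 during assembly and form the immunoproteasome, and they induce the PA28 activator formed by the products of Psme1 and Psme2. The immunoproteasome favours peptides that fit MHC class I molecules, and IRF9 is the DNA-binding part of ISGF3, the factor that binds interferon-stimulated response elements.

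The sequences of 4 promoters are shown because the results turn on these genes: the 3 inducible catalytic subunits, which the comparison was built around, and Psmb3, the only member that passed the test. Each is the 250 bases before the gene's start, from RefSeq (mouse build GRCm38.p6), written in the direction of transcription. Psmb8 is at chr17:34197945-34198194 on the plus strand and Psmb9 at chr17:34187331-34187580 on the minus strand. Psmb10 is at chr8:105938393-105938642 on the minus strand and Psmb3 at chr11:97703184-97703433 on the plus strand. Capitals mark a match, on either strand, to GAAANNGAAA (a core of the interferon-stimulated response element) or to TTCNNNGAA (a core of the gamma-activated site).
Psmb8: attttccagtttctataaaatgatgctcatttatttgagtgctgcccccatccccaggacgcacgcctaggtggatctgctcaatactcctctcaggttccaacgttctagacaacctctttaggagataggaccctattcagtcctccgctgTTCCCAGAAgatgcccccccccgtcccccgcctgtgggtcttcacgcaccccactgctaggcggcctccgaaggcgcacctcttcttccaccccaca
Psmb9: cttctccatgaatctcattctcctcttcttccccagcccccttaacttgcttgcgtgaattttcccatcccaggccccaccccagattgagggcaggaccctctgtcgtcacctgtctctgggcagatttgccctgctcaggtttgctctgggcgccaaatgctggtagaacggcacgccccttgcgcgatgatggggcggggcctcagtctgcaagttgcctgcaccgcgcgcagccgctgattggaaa
Psmb10: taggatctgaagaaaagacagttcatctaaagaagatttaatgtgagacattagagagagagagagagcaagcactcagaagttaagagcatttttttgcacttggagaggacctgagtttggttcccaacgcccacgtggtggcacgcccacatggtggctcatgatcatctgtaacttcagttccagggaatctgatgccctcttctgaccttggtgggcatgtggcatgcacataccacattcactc
Psmb3: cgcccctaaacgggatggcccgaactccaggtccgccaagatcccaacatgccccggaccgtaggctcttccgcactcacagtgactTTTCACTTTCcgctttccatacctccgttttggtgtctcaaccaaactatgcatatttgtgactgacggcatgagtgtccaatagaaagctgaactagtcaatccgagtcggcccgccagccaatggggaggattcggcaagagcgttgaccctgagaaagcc
The capitals in Psmb8 are a match to TTCNNNGAA, 97 to 89 bases before the start, and those in Psmb3 are a match to GAAANNGAAA on the opposite strand, 163 to 154 bases before the start. Neither pattern occurred in the windows of Psmb9 and Psmb10. GAAANNGAAA occurred in 2.98% of the 32851 promoter windows of the table and in 2 of the 31 members with a window (Psmb3 and Psmd4), and TTCNNNGAA in 7.02% of all windows and in 1 of those 31 members (Psmb8). The Psmb9 start lies close to that of Tap1, a subunit of the peptide transporter, on the opposite strand: 275 of the 300 bases of their windows, which run 50 bases past each start, are shared. A match describes letters in the window and not binding.

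Several arrays stood apart from their group before any proteasome gene was considered. The 3′ minus 5′ signal of Actb, a measure of RNA integrity on this array (a larger value goes with shorter RNA), was 1.56 to 2.501 in the SMC-IRF9-TG pools, against 2.21, 7.09 and 3.04 in the NTG pools (log2). For Gapdh the same measure was 1.36 to 3.52 in SMC-IRF9-TG pools and 3.16 to 6.32 in NTG pools. On both measures SMC-IRF9-TG pool 2 had the smallest value and NTG pool 2 the largest. Xist, an RNA of the inactive X chromosome, was 2.94 to 3.72 in the SMC-IRF9-TG pools, against 9.94, 9.504 and 4.08 in the NTG pools, although the methods name male mice. Endogenous and transgenic transcripts both count toward Irf9 where they hold the probed sequence, and Irf9 was 5.46, 5.41 and 5.58 in SMC-IRF9-TG pools, against 4.75, 5.43 and 5.36 in NTG pools. The difference of 0.30 ± 0.23 (SE) missed the threshold (adjusted p = 0.436, limma with Benjamini-Hochberg adjustment over 45037 probe sets). Whether the probe set covers the transgenic cDNA was not tested, so it does not check the transgene.

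The smooth muscle origin of the tissue was clear in both groups. Acta2, smooth muscle actin, averaged 13.56 ± 0.08 in SMC-IRF9-TG arteries and 13.42 ± 0.17 in NTG arteries (log2, SD, n = 3 each). Markers of macrophages differed between the groups, with a median difference of 3.62. At an adjusted p under 0.05, 12 of 14 were higher in SMC-IRF9-TG arteries (3.11% among all genes) and 0 lower (0.511% among all genes). Their summed level was 102.1 to 105.6 in SMC-IRF9-TG pools and 48.9 to 58.4 in NTG pools (log2 values added over 14 genes). Some NTG values were near the bottom of the scale, such as 1.79 for Ptprc and 1.80 for Aif1 in NTG pool 1, where the array median was 3.51. This difference moved with every comparison below, and its part in the proteasome results was not tested.

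Across the 36 measured members, 0 were higher and 1 (Psmb3) was lower in SMC-IRF9-TG arteries at an adjusted p under 0.05, and 35 did not pass. Among the 18193 genes taken in the same way, 3.11% were higher and 0.511% lower. Among all 45037 probe sets, 1069 were higher (2.37%) and 168 lower (0.373%). At an unadjusted p under 0.05 in limma, 7 members were higher (19.4%) and 2 lower (5.56%), against 14.9% higher and 9.81% lower among all genes. The plain 2-group test that the methods name gave 3 higher and 2 lower members at that level and 0 after adjustment. For that test no share over all genes was taken at the unadjusted level, so its counts there have no reference. The estimated difference was above 0 in 26 members (72.2%) and below 0 in 10, against 46.3% of all genes above 0. The median difference was 0.29 over the members and -0.05 over all genes (log2). These shares over all genes include dim ones, whereas no member had a group mean under the median level of the arrays. With dim probe sets left out, 62.3% of genes were above 0, beside the same 26 of 36 members. The median difference over the 22519 probe sets then kept was 0.13.

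Many members had their highest value in the same array. SMC-IRF9-TG pool 2 had the highest value of the 6 arrays in 25 of 36 members (69.4%), a place it held in 15.9% of all genes. NTG pool 2 had the lowest value in 10 members (27.8%), and in 24.4% of all genes. Without SMC-IRF9-TG pool 2, 22 of the 36 members had an estimate above 0, beside 46.8% of all genes. Without pool 2 of both groups 20 of the 36 members did, beside 45.2% of all genes, and with quantile normalisation 18, beside 44.6%. Every share over all genes in this paragraph, the 15.9% and 24.4% too, includes dim genes. None was taken without them, so none is matched to the members in brightness. The members were bright, with 32 to 35 of the 36 above the upper quartile of each array. That quartile was itself highest for SMC-IRF9-TG pool 2 (5.33) and lowest for NTG pool 2 (4.97). Its part in the count of 25 members was not tested. The median SD over the members was 0.361 among the SMC-IRF9-TG pools and 0.342 among the NTG pools, and it was 0.0957 among SMC-IRF9-TG pools 1 and 3 alone. The smallest Actb and Gapdh 3′ minus 5′ signals belonged to the same SMC-IRF9-TG pool 2, and their part in its high proteasome values was not tested.

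**Figure D1:**
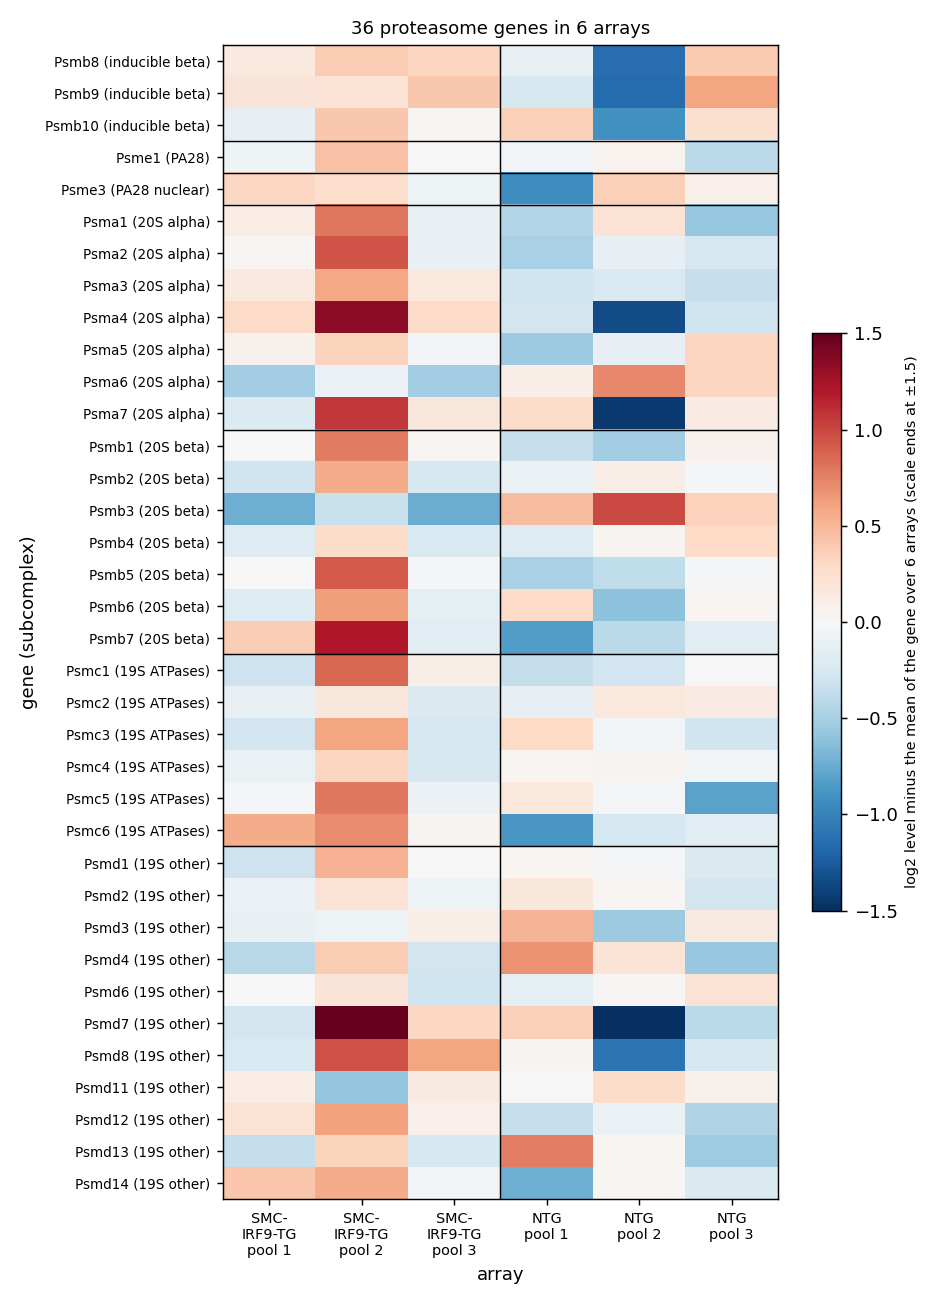
The heat map gives each of the 36 genes (rows, grouped by subcomplex) in each of the 6 arrays (columns, SMC-IRF9-TG pools left of NTG pools) as the log2 level minus the gene's mean over the arrays, with the colour scale ending at ±1.5. SMC-IRF9-TG pool 2 is the highest array for 25 of the 36 genes, and the 3 inducible beta subunits are lowest in NTG pool 2.

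The inducible catalytic subunits had estimates above 0, none of which passed the test, and in each of them the NTG pools spanned a wider range than the SMC-IRF9-TG pools. Psmb8, which supplies the chymotrypsin-like activity of the immunoproteasome, was 6.06, 6.30 and 6.24 in SMC-IRF9-TG pools, against 5.81, 4.77 and 6.31 in NTG pools. The groups overlapped, because NTG pool 3 had the highest value of all, and the NTG mean was set by pool 2. The difference was 0.57 ± 0.36 (SE, 95% interval -0.25 to 1.39, adjusted p = 0.359), or 1.48-fold, and without NTG pool 2 it was 0.14.

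Psmb9, the counterpart of Psmb6, was 5.53, 5.56 and 5.75 in SMC-IRF9-TG pools, against 5.11, 4.19 and 5.93 in NTG pools. Both ends of the range were those of Psmb8, with NTG pool 3 highest and NTG pool 2 lowest. The difference was 0.54 ± 0.39 (95% interval -0.35 to 1.42, adjusted p = 0.416), and 0.09 without NTG pool 2.

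Psmb10, the counterpart of Psmb7, was 5.78, 6.31 and 5.93 in SMC-IRF9-TG pools, against 6.26, 5.00 and 6.15 in NTG pools. Here NTG pools 1 and 3 both lay above SMC-IRF9-TG pools 1 and 3, and only NTG pool 2 lay below every SMC-IRF9-TG pool. The difference was 0.20 ± 0.34 (95% interval -0.58 to 0.98, adjusted p = 0.732), and it turned to -0.20 without NTG pool 2. The NTG SDs were 0.783, 0.871 and 0.698 for Psmb8, Psmb9 and Psmb10, against SMC-IRF9-TG SDs of 0.126, 0.119 and 0.270. NTG pool 2 had the largest 3′ minus 5′ signals of the 6 arrays (7.09 for Actb and 6.32 for Gapdh), and the part of that in the low values was not tested.

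Psme1, the alpha subunit of the PA28 activator, was 7.80, 8.30 and 7.86 in SMC-IRF9-TG pools, against 7.83, 7.91 and 7.48 in NTG pools. The groups overlapped and NTG pool 2 was the highest of its group, unlike in the 3 inducible beta genes. The difference was 0.25 ± 0.22 (95% interval -0.26 to 0.76, adjusted p = 0.506), an interval that leaves out a 2-fold rise, which is 1 on the log2 scale, and the difference was 0.094 without SMC-IRF9-TG pool 2. Psme3, which forms the nuclear PA28 activator and is not counted among the inducible genes, was 4.62, 4.58 and 4.23 in SMC-IRF9-TG pools, against 3.38, 4.66 and 4.39 in NTG pools. Only NTG pool 1 lay apart, and the difference was 0.34 ± 0.33 (adjusted p = 0.546).

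The constitutive catalytic subunits were compared with the inducible ones that replace them. Psmb5 was 8.08, 9.004 and 8.05 in SMC-IRF9-TG pools, against 7.60, 7.70 and 8.06 in NTG pools. SMC-IRF9-TG pool 2 lay apart at the top, and the other SMC-IRF9-TG pools were level with NTG pool 3. The difference was 0.59 ± 0.29 (95% interval -0.07 to 1.26, adjusted p = 0.262), and 0.28 without SMC-IRF9-TG pool 2.

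Psmb6 was 7.98, 8.81 and 8.05 in SMC-IRF9-TG pools, against 8.47, 7.57 and 8.21 in NTG pools. Both pools numbered 2 were at the ends of the range, SMC-IRF9-TG at the top and NTG at the bottom. The difference was 0.20 ± 0.31 (95% interval -0.51 to 0.91, adjusted p = 0.708), and without pool 2 of both groups it was -0.32.

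Psmb7 was 6.53, 7.36 and 5.99 in SMC-IRF9-TG pools, against 5.31, 5.75 and 5.99 in NTG pools. SMC-IRF9-TG pool 3 and NTG pool 3 were nearly equal, and SMC-IRF9-TG pools 1 and 2 were higher than every NTG pool. The difference was 0.94 ± 0.35 (95% interval 0.14 to 1.74, unadjusted p = 0.0262 and adjusted p = 0.174, limma), and 0.57 without SMC-IRF9-TG pool 2.

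**Figure D2:**
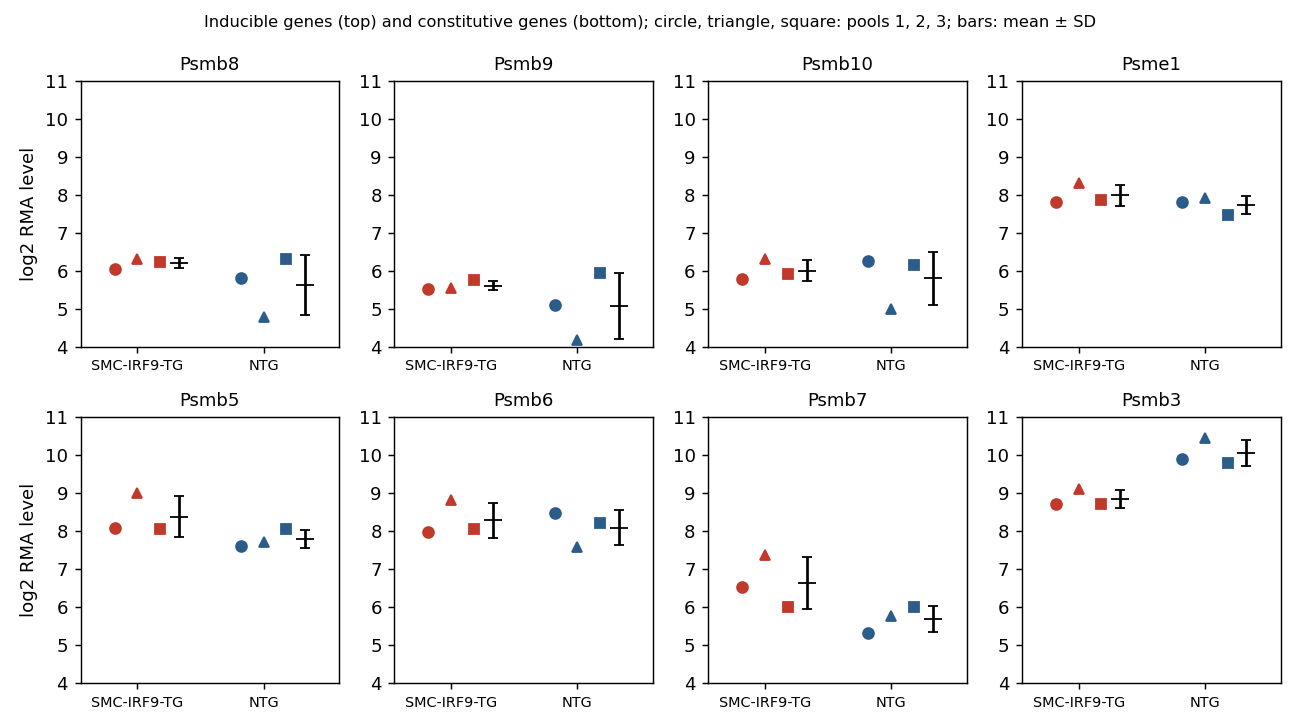
Each panel gives the log2 RMA level of 1 gene in the 3 SMC-IRF9-TG pools (red, left) and the 3 NTG pools (blue, right), with circle, triangle and square for pools 1, 2 and 3 and black bars for the mean ± SD. In Psmb8, Psmb9 and Psmb10 the triangle of NTG pool 2 is below all other points, while for Psmb3 all 3 SMC-IRF9-TG pools (8.70 to 9.11) lie below all 3 NTG pools (9.80 to 10.44).

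The exchange of catalytic subunits was compared within each array, as the log2 value of the inducible gene minus that of its constitutive counterpart, set to the NTG mean. For Psmb8 minus Psmb5 the values were 0.13, -0.55 and 0.34 in SMC-IRF9-TG pools, against 0.36, -0.77 and 0.40 in NTG pools, a change of -0.02 (exact permutation p = 0.8, two-sided), which was -0.50 with the average of a gene's probe sets. That average takes in a second Psmb8 probe set, which differed by -0.39. Its mean over the 6 arrays was 2.37, under every array median (3.42 to 3.66). For Psmb9 minus Psmb6 the values were 0.56, -0.25 and 0.71 in SMC-IRF9-TG pools, against -0.35, -0.37 and 0.73 in NTG pools, a change of 0.34 (exact permutation p = 0.6), which was 0.15 without NTG pool 2 and 0.70 without NTG pool 3. In both pairs the groups overlapped nearly over their whole range.

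For Psmb10 minus Psmb7 the values were -0.86, -1.17 and -0.18 in SMC-IRF9-TG pools, against 0.83, -0.87 and 0.04 in NTG pools, a change of -0.74 (exact permutation p = 0.3), which was -0.32 without NTG pool 1 and -1.17 without NTG pool 2. The SMC-IRF9-TG values lay below NTG pools 1 and 3 but overlapped with NTG pool 2. After adjustment over the 3 pairs each p was 0.8, and 3 pools against 3 cannot give a p below 0.1, so no pair could have passed a threshold of 0.05 in this test.

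As a set, the 4 inducible genes had a median difference of 0.39 and the 32 constitutive genes one of 0.28, a gap of 0.11 (log2, a description over the members without a test). The median of the inducible genes relative to the NTG mean was 0.25, 0.53 and 0.37 in SMC-IRF9-TG pools, against 0.13, -0.83 and 0.51 in NTG pools. For the constitutive genes the same median was 0.07, 0.67 and 0.08 in SMC-IRF9-TG pools, against -0.08, 0.05 and 0.08 in NTG pools. The most distant array was the low NTG pool 2 for the inducible genes and the high SMC-IRF9-TG pool 2 for the constitutive ones. Without NTG pool 2 the inducible median was 0.12 and the constitutive one 0.20. Without SMC-IRF9-TG pool 2 the inducible median was 0.31 and the constitutive one 0.12. The gap was -0.10 without x_at and s_at probe sets and 0.027 with the average of a gene's probe sets.

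**Figure D3:**
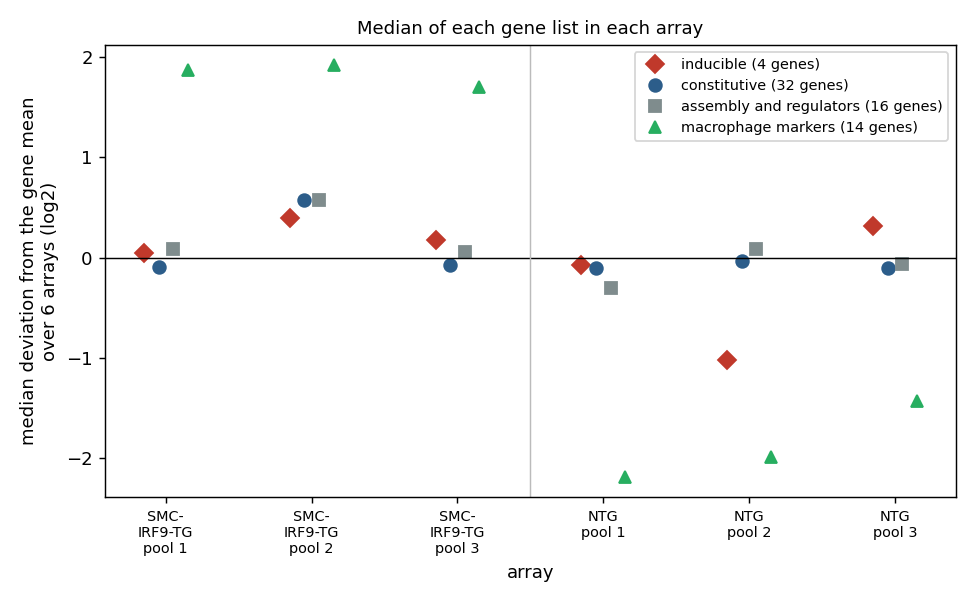
Points give, for each array (SMC-IRF9-TG pools left of NTG pools), the median over a gene list of the log2 deviation from each gene's mean over the 6 arrays. The inducible genes (red) reach -1.02 in NTG pool 2, the constitutive genes (blue) reach 0.57 in SMC-IRF9-TG pool 2, and the macrophage markers (green) lie at 1.70 to 1.92 in SMC-IRF9-TG pools and -2.18 to -1.43 in NTG pools.

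The alpha ring, whose 7 subunits form the outer rings and the gate of the core, had a median difference of 0.58, with 6 of 7 estimates above 0 and none past the threshold. Psma4 had the largest estimate of all members. It was 7.93, 8.99 and 7.94 in SMC-IRF9-TG pools, against 7.37, 6.30 and 7.35 in NTG pools. The groups did not overlap, and the pools numbered 2 were again at the ends. The difference was 1.28 ± 0.38 (95% interval 0.40 to 2.15, adjusted p = 0.118), or 2.42-fold.

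Psma3 was 9.33, 9.77 and 9.35 in SMC-IRF9-TG pools, against 8.89, 8.96 and 8.84 in NTG pools, with a tight NTG group and no overlap. Its difference was 0.59 ± 0.20 (adjusted p = 0.151). Psma2 was 8.68, 9.60 and 8.54 in SMC-IRF9-TG pools, against 8.16, 8.53 and 8.40 in NTG pools, without overlap, though SMC-IRF9-TG pool 3 and NTG pool 2 nearly met. The remaining estimates were 0.53 for Psma1, 0.23 for Psma5 and 0.69 for Psma7, with adjusted p from 0.316 to 0.597.

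Psma6 was the exception in the alpha ring. Its brightest probe set was 8.91, 9.35 and 8.91 in SMC-IRF9-TG pools, against 9.54, 10.15 and 9.75 in NTG pools, so that every SMC-IRF9-TG pool was below every NTG pool. The difference was -0.76 ± 0.24 (95% interval -1.29 to -0.22, adjusted p = 0.126) and did not pass. This probe set carries the suffix x_at, by which Affymetrix marks probes that may also hybridise to other transcripts. The next brightest probe set of the gene was 7.90, 8.69 and 7.76 in SMC-IRF9-TG pools, against 7.54, 8.30 and 7.87 in NTG pools, a difference of 0.21 (adjusted p = 0.680).

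In the constitutive beta ring, which has 7 members and a median difference of 0.20, Psmb3 was the only member of any subcomplex to pass the test. Psmb3 encodes a non-catalytic beta subunit. Its brightest probe set was 8.72, 9.11 and 8.70 in SMC-IRF9-TG pools, against 9.90, 10.44 and 9.80 in NTG pools. Every SMC-IRF9-TG pool was below every NTG pool. The means were 8.84 ± 0.23 in SMC-IRF9-TG arteries and 10.05 ± 0.34 in NTG arteries (SD, n = 3 each). The difference of -1.20 ± 0.24 (SE, 95% interval -1.75 to -0.66, adjusted p = 0.0386) made Psmb3 2.3-fold lower in SMC-IRF9-TG arteries.

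The other probe set of Psmb3 did not show this. It was 6.92, 8.07 and 7.19 in SMC-IRF9-TG pools, against 7.56, 6.14 and 7.42 in NTG pools, with overlapping groups and a difference of 0.35 (adjusted p = 0.624). NTG pool 2, which had the largest 3′ minus 5′ signals, was the highest array for the brightest probe set (10.44) and the lowest for the other (6.14). Without that pool the difference of the brightest probe set was -1.01 (adjusted p = 0.0486, limma). The part of the 3′ minus 5′ signal in the Psmb3 values was not tested. The mean of both probe sets differed by -0.43 (adjusted p = 0.298). The call for the brightest probe set was also lost when any SMC-IRF9-TG pool was left out (adjusted p = 0.162, 0.0954 and 0.154 without pools 1, 2 and 3), when NTG pool 1 was (adjusted p = 0.0835), and when each array was centred on its median (adjusted p = 0.0591), while the estimate was -1.34 to -1.01 with each pool left out and -1.11 with centring, and below 0 in every alternative. The adjusted p was 0.0234 to 0.777 over all alternatives.

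Of the other beta subunits, Psmb1 had an estimate of 0.54 (adjusted p = 0.272), Psmb2 one of 0.02 (adjusted p = 0.975) and Psmb4 one of -0.10 (adjusted p = 0.813). The interval of Psmb2 ran from -0.58 to 0.61 and that of Psmb4 from -0.62 to 0.43, so for these probe sets both leave out a 2-fold change in either direction. The other probe set of Psmb4 was nearly as bright and was 8.45, 9.29 and 8.70 in SMC-IRF9-TG pools, against 8.35, 7.48 and 8.40 in NTG pools, without overlap. Its difference was 0.74 (95% interval 0.01 to 1.46, adjusted p = 0.218), an interval that holds a 2-fold rise.

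The 6 ATPases of the regulatory particle, which form the ring that unfolds substrates, had a median difference of 0.23, and SMC-IRF9-TG pool 2 was the highest array in all 6. Psmc6 had the largest estimate and was 7.85, 8.002 and 7.34 in SMC-IRF9-TG pools, against 6.42, 7.03 and 7.13 in NTG pools. The groups did not overlap, with NTG pool 1 furthest below. The difference was 0.87 ± 0.27 (95% interval 0.26 to 1.48, adjusted p = 0.124). Its 2 other probe sets had estimates of the same sign, 0.73 and 0.71. In the first of these the groups overlapped (adjusted p = 0.384, limma). The other had a mean of 2.75 over the 6 arrays, under every array median (3.42 to 3.66).

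Psmc2 had the lowest estimate among the ATPases and was 9.30, 9.59 and 9.20 in SMC-IRF9-TG pools, against 9.30, 9.57 and 9.53 in NTG pools. These values were nearly the same in both groups (-0.10 ± 0.20, 95% interval -0.56 to 0.35, adjusted p = 0.766). A dimmer probe set of the gene differed by 0.60 (adjusted p = 0.202) with all SMC-IRF9-TG pools above all NTG pools. The estimates for Psmc1 and Psmc5 were 0.44 and 0.45, and those for Psmc3 and Psmc4 were 0.03 and -0.02.

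The 11 other subunits of the regulatory particle had a median difference of 0.04, the lowest of the subcomplexes with more than 1 member, with 6 estimates above 0 and 5 below. Psmd7, a lid subunit that pairs with the deubiquitinase encoded by Psmd14, was 5.09, 7.13 and 5.68 in SMC-IRF9-TG pools, against 5.72, 3.61 and 4.96 in NTG pools. The spread was the widest of the members, with SD of 1.05 among SMC-IRF9-TG pools and 1.07 among NTG pools. The difference was 1.20 ± 0.62 (95% interval -0.21 to 2.62, adjusted p = 0.277), and both ends of the range were again pools numbered 2. It was 0.62 without SMC-IRF9-TG pool 2, 0.63 without NTG pool 2 and 0.044 without both.

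Psmd11, a scaffold subunit of the lid, had the lowest estimate of this group. It was 8.13, 7.44 and 8.15 in SMC-IRF9-TG pools, against 8.03, 8.30 and 8.09 in NTG pools. It was the only member for which SMC-IRF9-TG pool 2 had the lowest value of the 6 arrays. The difference was -0.23 ± 0.24 (adjusted p = 0.574), and without that pool it was 0.00.

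Psmd12, another lid subunit, was 7.09, 7.48 and 6.95 in SMC-IRF9-TG pools, against 6.53, 6.79 and 6.42 in NTG pools, without overlap (0.59 ± 0.22, adjusted p = 0.169). Psmd14, the deubiquitinase that releases ubiquitin chains at the entry to the core, had an estimate of 0.62 (adjusted p = 0.213), and Psmd8 one of 0.87 (adjusted p = 0.221). Psmd1 and Psmd2, the large scaffold subunits of the base, had estimates of 0.14 and 0.04. The ubiquitin receptor Psmd4 had one of -0.21, and those of Psmd3, Psmd6 and Psmd13 lay between -0.17 and -0.06.

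Counting over all subcomplexes, the groups did not overlap in 7 members. SMC-IRF9-TG pools were all above in 5 (Psma2, Psma3, Psma4, Psmc6 and Psmd12, 13.9% of 36) and all below in 2 (Psma6 and Psmb3, 5.56%), against 16.1% above and 16.1% below among all genes. The upper bound of the 95% interval was under 1, a 2-fold rise, in 18 of the 36 members, and the median width of the interval to either side was 0.644. For the other 18 the interval held a 2-fold rise.

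**Figure D4:**
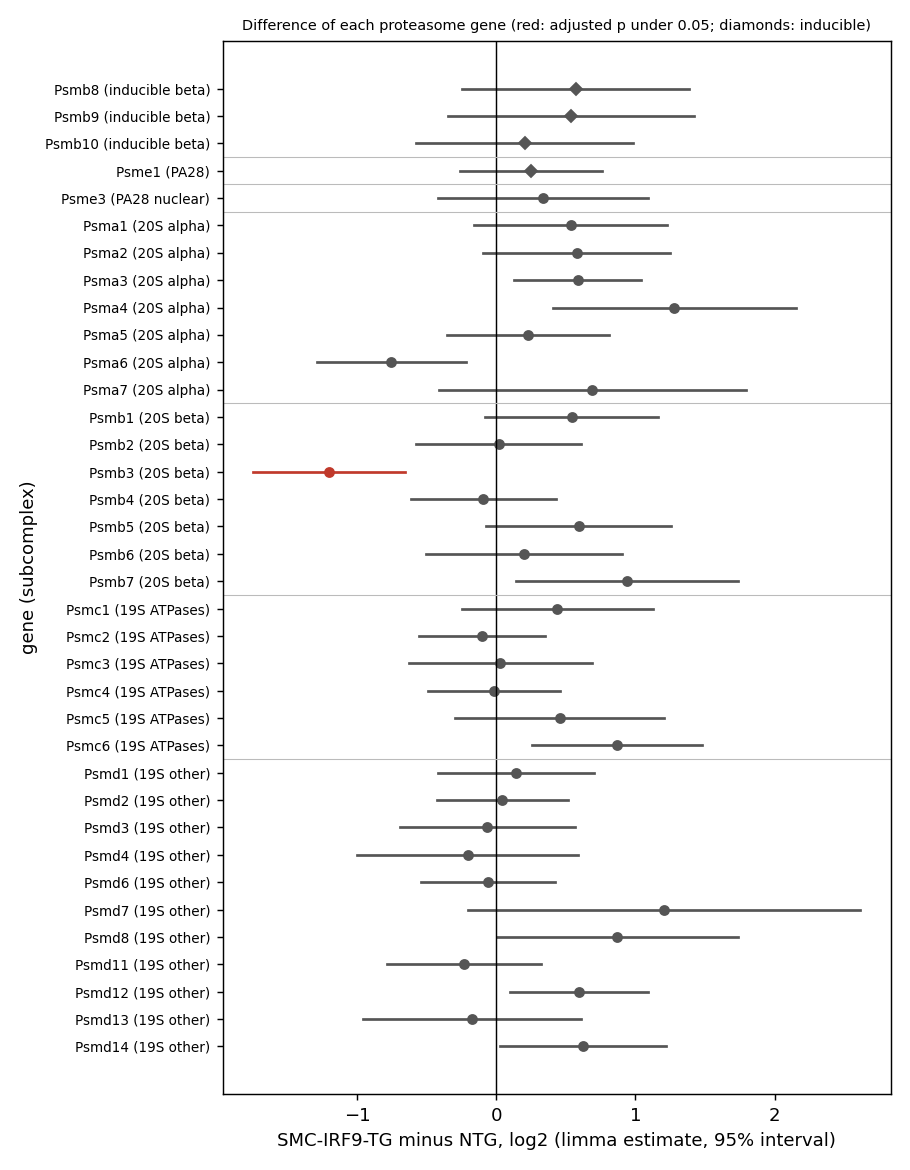
For each of the 36 genes the point gives limma's log2 estimate of the SMC-IRF9-TG minus NTG difference and the line its 95% interval, with diamonds for the 4 inducible genes and red for an adjusted p under 0.05. Only Psmb3, at -1.20, is red, and 26 of the 36 points lie right of 0.

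The choice of probe set mattered for many of these genes. Of the 36 members, 20 had more than 1 probe set, and in 17 of these 20 the estimates of the gene's probe sets had both signs. Among the probe sets whose mean over the 6 arrays was above the median of the array medians, 15 genes had more than 1, and 11 of these 15 had both signs. Over all 75 probe sets, 48 estimates were above 0 and 1 probe set (that of Psmb3) passed, in the lower direction. The SMC-IRF9-TG pools were all above the NTG pools in 14 probe sets (18.7%, against 12.1% of all probe sets) and all below in 7 (9.33%, against 19.2%). Psmd11 had the most probe sets, 8, with estimates from -0.36 to 1.80. The one at 1.80 was 5.38, 6.33 and 5.89 in SMC-IRF9-TG pools, against 4.97, 2.75 and 4.48 in NTG pools (adjusted p = 0.112), so the gene's brightest and its most changed probe set pointed in opposite directions. Psmb4 and Psmd6 each had a second probe set, with estimates of 0.74 and 0.72, where the brightest gave -0.10 and -0.06.

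**Figure D5:**
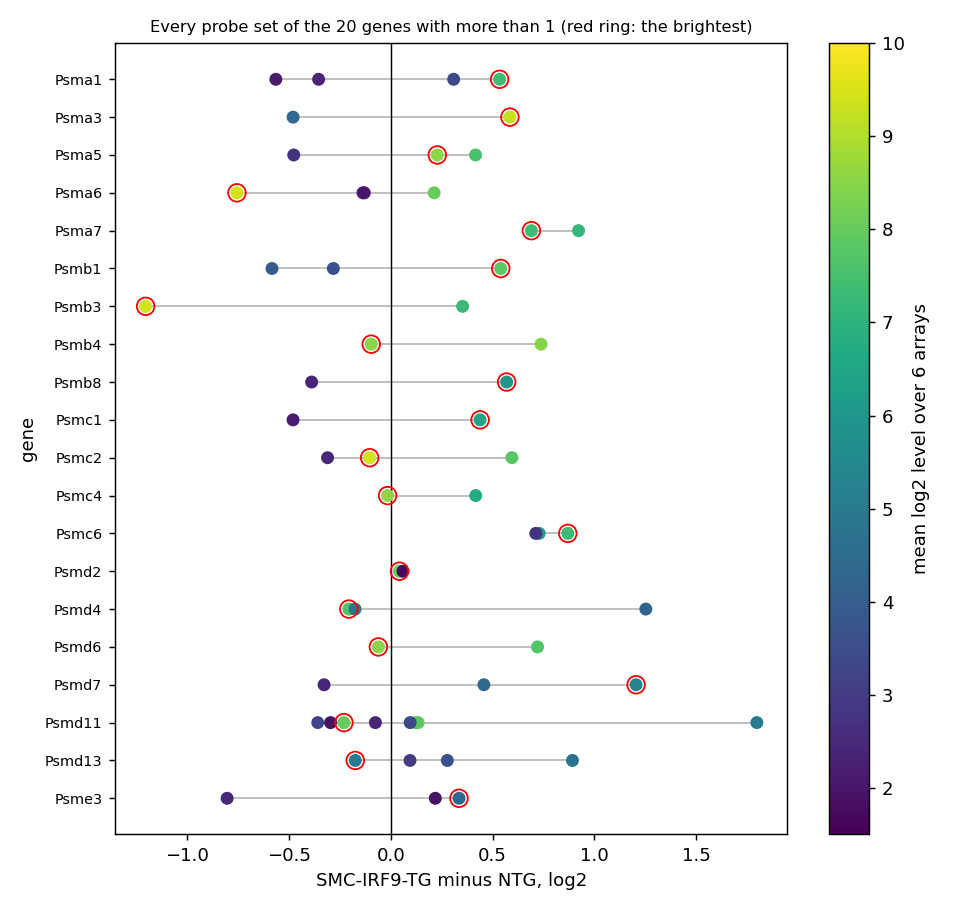
Each row is 1 of the 20 genes with several probe sets, and each point is a probe set placed at its SMC-IRF9-TG minus NTG estimate (log2) and coloured by its mean level over the 6 arrays, with a red ring on the brightest one. In 17 of the 20 rows the points lie on both sides of 0, and the ringed point of Psmb3 at -1.20 faces one at 0.35.

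Genes that assemble or regulate the proteasome were described beside the subunits, from a list of 17 of which 16 were measured. None passed in either direction, the median difference was 0.41, and SMC-IRF9-TG pool 2 was the highest array in 10 of the 16, as in the subunits. Pomp, the maturation factor of the core, averaged 8.28 ± 0.46 in SMC-IRF9-TG arteries and 7.83 ± 0.19 in NTG arteries (difference 0.45, adjusted p = 0.329). Nfe2l2, the transcription factor NRF2, which can induce core subunits under oxidative stress, averaged 8.24 ± 0.26 in SMC-IRF9-TG arteries and 7.61 ± 0.38 in NTG arteries (difference 0.63, adjusted p = 0.193). Psmd10, a chaperone of the regulatory particle named here after its values were seen, had the lowest adjusted p of this list. It was 4.77, 5.75 and 4.63 in SMC-IRF9-TG pools, against 3.42, 4.07 and 2.79 in NTG pools (difference 1.62 ± 0.39, adjusted p = 0.0708). Of 8 ubiquitin and segregase genes, 3 were measured and 0 passed, with a median of 0.21. Vcp, the ATPase that extracts ubiquitinated proteins, differed by 0.01 and its cofactor Ufd1 by 0.40.

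The products of the proteasome feed the loading of MHC class I molecules, so the genes of that path were set beside the subunits. All 12 were measured and none passed, with a median difference of 0.54 and 10 estimates above 0. B2m, the light chain of MHC class I, averaged 11.04 ± 0.03 in SMC-IRF9-TG arteries and 10.06 ± 0.40 in NTG arteries. Its groups did not overlap, and the difference of 0.98 ± 0.23 had an adjusted p of 0.0705. Calr, a chaperone of the loading complex, averaged 10.91 ± 0.29 in SMC-IRF9-TG arteries and 10.07 ± 0.34 in NTG arteries (difference 0.84, adjusted p = 0.113). Tap1, whose promoter window overlaps that of Psmb9 as given above, was 5.43, 5.11 and 5.81 in SMC-IRF9-TG pools, against 4.98, 3.98 and 5.16 in NTG pools. NTG pool 2 was the lowest array for Tap1, as for all 3 inducible beta genes and not Psmb9 alone. It was also the lowest in 5 of the 12 genes of this list (41.7%), against 24.4% of all genes. The Tap1 difference was 0.74 ± 0.34 (adjusted p = 0.233).

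Among the interferon regulators of the inducible subunits, 9 of 10 genes were measured, 2 passed as higher (3.11% among all genes), 0 as lower (0.511% among all genes) and 7 in neither direction, with a median difference of 1.06. Both genes that passed encode receptor chains. Ifngr1, a chain of the interferon gamma receptor, was 8.004, 7.99 and 7.70 in SMC-IRF9-TG pools, against 7.0, 6.69 and 6.83 in NTG pools (difference 1.06 ± 0.20, adjusted p = 0.0308). Ifnar2, a chain of the type I interferon receptor, was 6.91, 7.71 and 6.72 in SMC-IRF9-TG pools, against 5.36, 5.52 and 5.96 in NTG pools (difference 1.49 ± 0.30, adjusted p = 0.0387). Of the 7 that did not pass, Irf8, Ifngr2 and Ifnar1 were named here after their values were seen. They had differences of 1.69 (adjusted p = 0.0565), 1.30 (adjusted p = 0.0856) and 1.24 (adjusted p = 0.0594), without overlap between the groups. The rest overlapped, with differences of 0.30 for Irf9, 0.08 for Stat2, -0.22 for Irf1 and -0.36 for Irf2. In this list SMC-IRF9-TG pools were all above in 5 genes (55.6%, against 16.1% of all genes) and all below in 0 (against 16.1%).

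The marker lists of cell types gave the setting of these values. Tyrobp, an adaptor of myeloid receptors, led the macrophage list with a difference of 5.42 (adjusted p = 0.00053), followed by the lysozyme gene Lyz2 with 5.05 and by C1qc and C1qa, chains of complement C1q, with 5.03 and 4.75. No T and NK cell marker passed (8 of 9 measured, median 0.30), and their summed level was 26.8 to 31.0 in SMC-IRF9-TG pools and 25.8 to 28.4 in NTG pools, with Cd3e and Cd8a each differing by 0.39. No B cell marker passed (3 of 4 measured, median -0.22), with summed levels of 8.12 to 9.28 in SMC-IRF9-TG pools and 8.27 to 9.38 in NTG pools. Cd79a differed by -0.22, Ms4a1 by -0.38 and Cd79b by 0.22. Their means over the 6 arrays were 2.55 to 3.37, under every array median (3.42 to 3.66). No endothelial marker of 5 passed (median 0.36), with sums of 34.8 to 35.0 in SMC-IRF9-TG pools and 30.8 to 37.4 in NTG pools. Vwf differed by -0.81 and Tek by -0.03, while Pecam1 differed by 1.26, Kdr by 0.39 and Cdh5 by 0.36. No smooth muscle marker of 6 passed (median 0.15), with sums of 62.6 to 63.9 in SMC-IRF9-TG pools and 58.4 to 64.2 in NTG pools. Acta2 differed by 0.14 and Tagln, the gene of SM22α, by 1.11 (adjusted p = 0.238), with NTG pool 2 lowest at 10.05.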

How the data were processed

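Total RNA from pooled wire-injured carotid arteries (400 ng per array) was hybridised to Affymetrix mouse arrays, 3 SMC-IRF9-TG and 3 NTG. The deposited values are log2 expression levels per probe set, which the authors made with Affymetrix Expression Console and RMA (background correction, quantile normalisation and summary of the probes). No version of either is given in the labels or methods. Such values hold no detection call and no read depth. Of 45101 probe sets, 64 controls were left out. Of the 45037 tested, 34945 had 1 gene symbol, 932 several and 9160 none in the platform annotation.

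All 45037 probe sets were fitted with limma 3.58.1 (lmFit and eBayes, R 4.3.3), 2-sided, with Benjamini-Hochberg adjustment over all of them and a threshold of 0.05. The script was tested on simulated data. Within-array pairs were compared with an exact permutation test (Python 3.11.15, numpy 2.4.6, pandas 2.3.3). Figures were drawn with matplotlib 3.10.9. Members could all be named. Those given array by array were the inducible genes, Psmb5, Psmb6, Psmb7, each member that passed and the member with the largest and the lowest difference in each subcomplex; Psma2, Psma3 and Psmd12 were added after their values were seen. In other lists up to 4 passing genes of largest change were named, or the 2 of highest level where none passed, and Irf9 and Tap1. Every measured gene of the interferon regulators, the B cell markers and the endothelial markers was named, after their values were seen. Members and lists were chosen with earlier results of these data known. Some genes of these lists are not analysed here.

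Alternatives were median centring, quantile normalisation, a filter on dim probe sets, a trended and robust prior, the replicate number as a block, array weights, leaving out each pool, the average of a gene's probe sets, leaving out probe sets ending in x_at or s_at, and the t-test of the methods. Leaving out pool 2 of both groups, NTG pools 1 and 2, or SMC-IRF9-TG pools 1 and 2 was added after seeing the data.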

Additional observations from a re-analysis of the deposited data

How the results depend on the processing

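Under all 18 alternatives 0 members and 0 inducible genes were higher in SMC-IRF9-TG arteries. The count of members lower was 1, and it was 0 with median centring, with the methods' t-test, with the average of a gene's probe sets, without pool 2 of both groups, without NTG pools 1 and 2 and without SMC-IRF9-TG pools 1 and 2, and 0 to 1 with each pool left out in turn. With 1 pool left in a group, its spread is assumed to be that of the other group. The gap between the inducible and the constitutive median (0.11) was -0.42 without NTG pools 1 and 2, -0.10 without x_at and s_at probe sets, 0.027 with the average of a gene's probe sets and -0.077 to 0.32 with each pool left out. The change of Psmb8 minus Psmb5 (-0.02) was -0.50 with that average, which takes in a dim second Psmb8 probe set, and -0.41 to 0.24 with each pool left out. With each pool left out Psmb9 minus Psmb6 (0.34) was 0.15 to 0.70 and Psmb10 minus Psmb7 (-0.74) was -1.17 to -0.32. Members turned in sign as follows, none of them past the threshold on either side. With median centring 3 turned (Psmc4 0.079, Psmd3 0.029, Psmd6 0.033). With quantile normalisation 8 turned (Psma5 -0.016, Psmb10 -0.12, Psmb2 -0.27, Psmb6 -0.061, Psmc3 -0.24, Psmd1 -0.15, Psmd2 -0.23, Psme1 -0.025). With array weights 5 turned (Psmb10 -0.018, Psmb2 -0.057, Psmb6 -0.020, Psmc3 -0.13, Psmd2 -0.020). With the average of a gene's probe sets 11 turned (Psma1 -0.019, Psmb1 -0.11, Psmb4 0.32, Psmc1 -0.021, Psmc2 0.060, Psmc4 0.20, Psmd11 0.15, Psmd13 0.27, Psmd4 0.29, Psmd6 0.33, Psme3 -0.083). Without x_at and s_at probe sets 4 turned (Psma6 0.21, Psmb4 0.74, Psmc2 0.60, Psmd13 0.89). Without pool 2 of both groups 8 turned (Psma7 -0.21, Psmb10 -0.35, Psmb2 -0.21, Psmb6 -0.32, Psmc3 -0.27, Psmd1 -0.058, Psmd11 0.083, Psmd2 -0.029). Without NTG pools 1 and 2, 7 turned (Psma5 -0.21, Psmb10 -0.14, Psmb8 -0.11, Psmb9 -0.32, Psmc4 0.037, Psmd13 0.45, Psmd4 0.47). Without SMC-IRF9-TG pools 1 and 2, 6 turned (Psmb2 -0.23, Psmb6 -0.031, Psmc3 -0.24, Psmd11 0.017, Psmd2 -0.053, Psmd3 0.055). With each pool left out in turn the members that changed sign ranged over -0.20 to 0.43 (Psmb10), -0.26 to 0.17 (Psmb2), -0.26 to 0.029 (Psmb4), -0.064 to 0.39 (Psmb6), -0.26 to 0.18 (Psmc3), -0.18 to 0.10 (Psmc4), -0.081 to 0.33 (Psmd1), -0.35 to 0.0045 (Psmd11), -0.49 to 0.16 (Psmd13), -0.082 to 0.14 (Psmd2), -0.35 to 0.17 (Psmd3), -0.54 to 0.082 (Psmd4), -0.17 to 0.071 (Psmd6) and -0.048 to 0.60 (Psme3). The cause of these shifts was not tested. The replicate numbers did not pair the pools (correlations of same-numbered deviations -0.15, -0.0006 and 0.027). With the replicate block 0 members were higher and 1 lower (Psmb3, adjusted p = 0.0478, limma), the gap was 0.11, and over all probe sets 659 were higher and 71 lower, against 1069 and 168 without the block. The t-test gave 0 higher and 1 lower over all probe sets. With 3 arrays a group and a median interval of 0.644 to either side, smaller differences could not be resolved.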
